A study of Homo sapiens with 7 samples.

Results

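The genes described here are 5 transcripts that pathologists and cell biologists use as marks of neuroendocrine or neuronal identity: PCSK1N, SNAP25, SYP, ENO2 and UCHL1. They were picked by symbol from the 13872 genes of a table of gene expression in UM-UC-3, an established human line derived from urothelial (bladder) carcinoma, and all 5 were found. The 7 libraries of total RNA were 3 ALDH-high clones (H1, H6 and H10), 3 ALDH-low clones (L1, L3 and L8) and 1 wild-type culture. The clones had been isolated with the ALDEFLUOR assay, in which cells fluoresce in proportion to their aldehyde dehydrogenase (ALDH) activity. The submitters use the ALDH-high clones as cancer stem-like cells, the ALDH-low clones as their non-stem-like counterparts and the wild type as control. Each library comes from 1 clone of a single line, so n = 3 stands for clones, and wild type is a single library.

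Neuroendocrine cells store peptide hormones in dense-core granules and release them, as neurons release transmitter, by fusing vesicles with the plasma membrane. PCSK1N encodes proSAAS, a granule protein that is cut into peptides and can inhibit the prohormone convertase PCSK1. SNAP25 is a plasma membrane SNARE protein that pulls vesicles onto the membrane, and SYP (synaptophysin) is a membrane protein of small synaptic and synaptic-like vesicles. ENO2 is the neuron-specific enolase of glycolysis. UCHL1 (PGP9.5) is a ubiquitin hydrolase that is abundant in neurons. In the annotation PCSK1N (ENSG00000102109) and SYP (ENSG00000102003) lie on chromosome X, SNAP25 (ENSG00000132639) on chromosome 20, ENO2 (ENSG00000111674) on chromosome 12 and UCHL1 (ENSG00000154277) on chromosome 4. SNAP25, SYP and UCHL1 each overlap an annotated antisense gene, and since the use of strand is not stated, reads of the pairs may not have been told apart. None of the 5 is restricted to neuroendocrine tumours, and carcinoma lines can express them singly.

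Values are in CPM, reads scaled to a common library size, in which 1 read corresponds to between 0.0393 and 0.0411 CPM, so that a level of 0 allows up to 0.118 to 0.123 CPM (3 reads, counting error only). The 7 columns sum to between 967084.9 and 1019855.1 CPM over the listed genes. CPM is not scaled by transcript length, so levels are compared between libraries and never between genes. In RNA from whole cultures, fewer cells that express a gene and less of its RNA per cell cannot be told apart. As a check of the line, 6 of 16 luminal and 2 of 11 basal urothelial markers could be examined, among them KRT8, KRT18, CD44 and EGFR. KRT18, a simple-epithelial keratin, averaged 502 CPM in ALDH-high clones, 302 CPM in ALDH-low clones and stood at 352 CPM in wild type. Of these markers 7 were tested and limma called 0, with 4 at an unadjusted p under 0.05, beside 19.7% of all tested genes. The smallest adjusted p were 0.118, 0.207 and 0.231 for the luminal markers KRT7, ERBB2 and KRT8, and 0.149 and 0.259 for the basal markers EGFR and CD44. KRT8 and KRT18 were higher on average in ALDH-high clones, with groups that overlapped, while 3 luminal and 2 basal markers were lower. Of those lower, KRT7, ERBB2, EGFR and CD44 had groups that did not overlap, as did 12.1% of all tested genes in that direction. The uroplakins, GATA3, KRT5 and TP63 were not analysed here.

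PCSK1N was the single member that differed between the clone groups past the threshold. It stood at 8.58, 5.87 and 7.44 CPM in ALDH-high clones H1, H6 and H10, against 0.16, 0.16 and 0.08 CPM in ALDH-low clones L1, L3 and L8, and at 9.19 CPM in wild type. The groups were far apart, and the ALDH-low values equal 4, 4 and 2 times the CPM of 1 read, close to the limit of detection. The mean was 7.30 ± 1.36 CPM in ALDH-high clones, against 0.133 ± 0.0462 CPM in ALDH-low clones (SD, n = 3 each), a ratio of 54.7. On the log2(CPM + 1) scale PCSK1N rose by 2.86 in ALDH-high clones (SE 0.216, 95% interval 2.36 to 3.36, limma adjusted p = 0.00157). Its p ranked 8 among the 12705 genes tested. PCSK1N reached the 1 CPM needed in 3 clones for testing only through the ALDH-high clones. With no such filter its adjusted p by limma was 0.0016. Of the members 1 of 5 rose and 0 fell, beside 0.645% and 0.693% of all tested genes. At an unadjusted p under 0.05 there were 2 of 5 members, PCSK1N and SNAP25, beside 19.7% of all tested genes. The fitted difference depended on the pseudocount, at 4.99 with 0.1 and 1.25 with 5 (adjusted p = 0.00194 and 0.00357), because the ALDH-low values lie near 0. An exact two-sided permutation test of 3 against 3 clones gave p = 0.1, the smallest it can give.

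**Figure D1:**
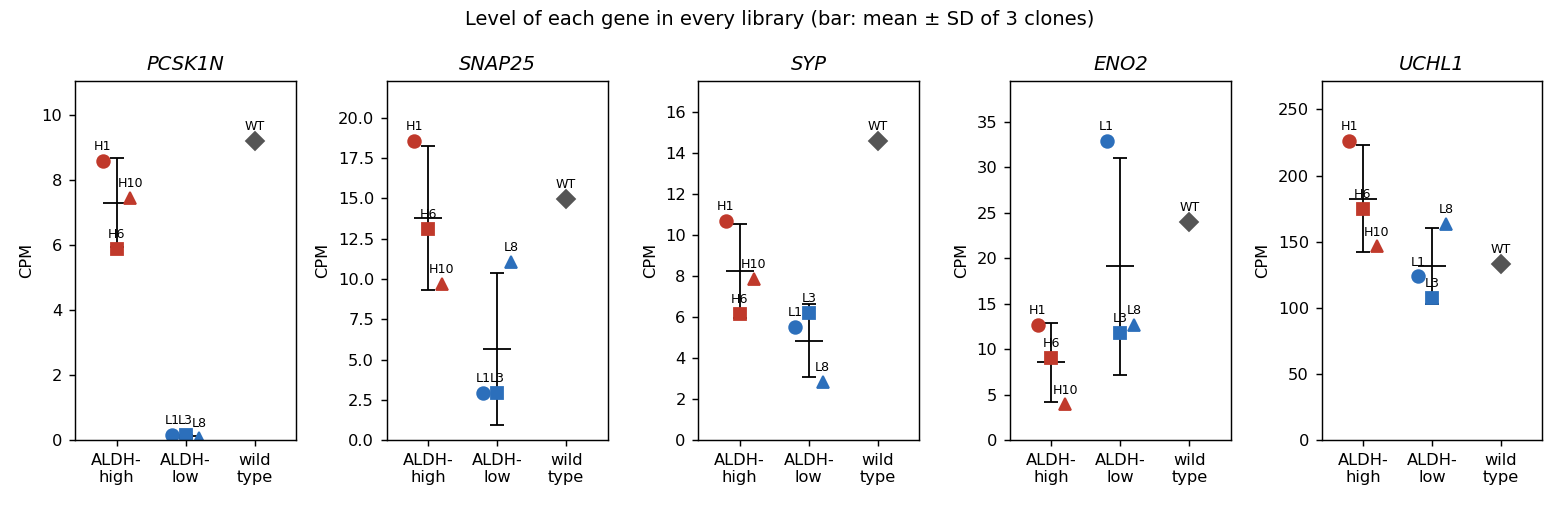
CPM of PCSK1N, SNAP25, SYP, ENO2 and UCHL1 (one panel each, y axis from 0) in the 3 ALDH-high clones (red), the 3 ALDH-low clones (blue) and wild type (grey), with mean ± SD of the clones in black. PCSK1N separates the clone groups, with 5.87 CPM or more in ALDH-high clones, against 0.16 CPM or less in ALDH-low clones, whereas the groups overlap for the other genes.

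The PCSK1N and SYP genes lie on the same arm of the X chromosome, and their upstream sequences are shown because they are the 2 neighbouring members and only PCSK1N passed the test. Both are RefSeq sequences of build GRCh38.p14, from 250 to 41 bases before the annotated start, on the minus strand and read 5′ to 3′, with GC boxes in capitals.
PCSK1N, chrX:48835651-48835860: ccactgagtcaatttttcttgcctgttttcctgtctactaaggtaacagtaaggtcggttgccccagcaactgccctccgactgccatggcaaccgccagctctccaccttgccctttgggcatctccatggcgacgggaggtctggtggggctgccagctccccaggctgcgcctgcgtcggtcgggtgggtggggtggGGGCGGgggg
SYP, chrX:49200234-49200443: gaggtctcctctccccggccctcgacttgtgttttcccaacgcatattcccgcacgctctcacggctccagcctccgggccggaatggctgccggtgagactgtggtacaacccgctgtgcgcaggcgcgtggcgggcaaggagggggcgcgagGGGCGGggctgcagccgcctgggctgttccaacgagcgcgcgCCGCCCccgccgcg

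The PCSK1N window was 63.8% G and C with 10 CpG dinucleotides, and the SYP window 72.4% with 26, where the median over 35116 promoter windows of this length was 57.6% with 8. The GC box GGGCGG, searched on both strands, occurred 1 time in the PCSK1N window and 2 times in the SYP window, and 37.2% of all windows hold it. Neither window, nor those of ENO2 and UCHL1, held the letters of the left or right part of the binding site of REST, the repressor of neuronal genes in non-neuronal cells. The left part TTCAGCACC occurs in 0.23% of all windows and the right part GGACAGC in 4.03%, again on both strands. Only exact letters inside these windows were searched, and few windows of any gene hold them. Their absence therefore does not show that these genes lack a REST site. The cyclic AMP response element TGACGTCA (1.17% of windows) and the TATA box TATAAA (7.86%) were also not found in the 4 windows. Promoter sequence was matched for 4 of the 5 members, all but SNAP25.

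None of the listed genes next to PCSK1N passed the test. Its 10 nearest listed genes, 5 on each side in the GENCODE order and including a copy of the repeated U6 gene, were all tested. By limma 0 rose and 0 fell, and 0 had an unadjusted p under 0.05. Their differences ran from -0.23 to 0.40 log2 units, with a median of 0.10. HDAC6, a cytoplasmic deacetylase and the listed neighbour on one side, averaged 4.32 CPM in ALDH-high clones, against 4.90 CPM in ALDH-low clones (-0.14 log2 units, adjusted p = 0.729). TIMM17B, a mitochondrial import subunit on the other side, averaged 15.4 CPM in ALDH-high clones, against 12.4 CPM in ALDH-low clones (0.28 log2 units, adjusted p = 0.501). GENCODE lists no gene that overlaps PCSK1N.

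SNAP25 was at 18.56, 13.09 and 9.68 CPM in ALDH-high clones H1, H6 and H10, against 2.96, 2.95 and 11.08 CPM in ALDH-low clones L1, L3 and L8, and at 14.95 CPM in wild type. L1 and L3 were low, while L8 lay within the ALDH-high range, so the groups overlapped. The mean was 13.8 ± 4.48 CPM in ALDH-high clones, against 5.66 ± 4.69 CPM in ALDH-low clones (SD, n = 3 each), a ratio of 2.43. The difference of 1.32 log2 units (SE 0.453, 95% interval 0.28 to 2.36) did not pass, with a limma adjusted p = 0.17. Without L8 it was 1.86 (adjusted p = 0.0971), and with a pseudocount of 5 it was 0.87. The spread of SNAP25 among ALDH-low clones was wider than that of 97.9% of the tested genes on the log2(CPM + 1) scale (SD 0.93, against a median of 0.229).

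SYP was at 10.69, 6.16 and 7.88 CPM in ALDH-high clones H1, H6 and H10, against 5.52, 6.21 and 2.84 CPM in ALDH-low clones L1, L3 and L8, and at 14.59 CPM in wild type. H6 and L3 were nearly level, and wild type was above every clone. The mean was 8.24 ± 2.29 CPM in ALDH-high clones, against 4.86 ± 1.78 CPM in ALDH-low clones (SD, n = 3 each). The difference of 0.68 log2 units (SE 0.303, 95% interval -0.018 to 1.38) did not pass by limma (adjusted p = 0.265). It was 0.40 without L8 and 0.43 with a pseudocount of 5.

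Of the listed genes around SYP, 1 passed the test. Of the 10 nearest listed genes 9 were tested, 0 rose and 1 fell, with 1 at an unadjusted p under 0.05. PLP2, a small membrane protein gene 2 places away, stood at 51.02, 65.38 and 41.72 CPM in ALDH-high clones H1, H6 and H10, against 144.64, 132.89 and 127.68 CPM in ALDH-low clones L1, L3 and L8. It fell by 1.36 log2 units (SE 0.182, adjusted p = 0.0189), the direction opposite to that of SYP, and lost its call without H10, L1 or L8 (adjusted p up to 0.101). PRICKLE3 on one side of SYP differed by -0.05 and CACNA1F on the other by 0.03 log2 units (adjusted p = 0.91 and 0.971). CACNA1F shares all 7 values with the pseudogene HSPB1P2, so the source of its reads is uncertain. Across the 11 listed genes that lie between PCSK1N and SYP, leaving out a copy of the repeated U6 gene, the median difference was 0.0013 log2 units.

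UCHL1 was at 226.22, 174.8 and 146.48 CPM in ALDH-high clones H1, H6 and H10, against 123.88, 107.6 and 163.76 CPM in ALDH-low clones L1, L3 and L8, and at 133.53 CPM in wild type. L8 lay above H10, so the groups overlapped, and wild type lay among the ALDH-low clones. The mean was 182.5 ± 40.4 CPM in ALDH-high clones, against 132 ± 28.9 CPM in ALDH-low clones (SD, n = 3 each). The difference of 0.47 log2 units (SE 0.215, 95% interval -0.028 to 0.96) did not pass by limma (adjusted p = 0.279). It was 0.30 without H1 and 0.28 with library weights. No clone lacked UCHL1, and its levels differed by 1.54-fold at most among ALDH-high clones and 1.52-fold among ALDH-low clones.

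Among the 10 nearest listed genes of UCHL1, 9 were tested, 1 rose and 0 fell, with a median difference of 0.31 log2 units. At an unadjusted p under 0.05 by limma there were 4, beside 19.7% of all tested genes. All 4 were higher in ALDH-high clones, the direction of UCHL1, with groups that did not overlap, as in 14.0% of all tested genes in that direction. ATP8A1, a phospholipid flippase gene, was at 2.38, 1.52 and 1.36 CPM in ALDH-high clones H1, H6 and H10, against 0.12 CPM in each ALDH-low clone. It entered the test only through the ALDH-high clones, the group in which it was high. Its rise was 1.28 log2 units (SE 0.227, adjusted p = 0.0427), and it lost its call when any of the 6 clones was left out (adjusted p of at most 0.148) and with a pseudocount of 5 or quantile normalization. The difference of ATP8A1 was 0.40 log2 units with a pseudocount of 5 and 3.04 with 0.1 (adjusted p = 0.0715 and 0.036). The immediate neighbours were APBB2, an adaptor that binds the amyloid precursor protein, at 0.82 log2 units (adjusted p = 0.159), and LIMCH1 at -0.23 (adjusted p = 0.886).

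ENO2 was the member whose mean was lower in ALDH-high clones. It was at 12.68, 9.03 and 3.96 CPM in ALDH-high clones H1, H6 and H10, against 32.88, 11.78 and 12.68 CPM in ALDH-low clones L1, L3 and L8, and at 23.98 CPM in wild type. L1 stood apart from L3 and L8, and H1 lay level with L8. The mean was 8.56 ± 4.38 CPM in ALDH-high clones, against 19.1 ± 11.9 CPM in ALDH-low clones (SD, n = 3 each). The difference of -1.04 log2 units (SE 0.472, 95% interval -2.13 to 0.046) did not pass by limma (adjusted p = 0.272). It was -0.59 without L1 and -0.63 without H10.

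L1 was also the highest clone for 2 other glycolytic enzyme genes near ENO2 in sequence or position, of which TPI1 was singled out after its values were seen. ENO1, the enolase of most tissues, was at 3117.59, 2609.43 and 2670.53 CPM in ALDH-high clones H1, H6 and H10, against 4431.05, 2296.43 and 3179.01 CPM in ALDH-low clones L1, L3 and L8. TPI1, a triose-phosphate isomerase gene 4 places from ENO2, was at 1024.07, 786.78 and 689.32 CPM in ALDH-high clones, against 1549.64, 836.37 and 678.16 CPM in ALDH-low clones, in the same clone order. Neither gene passed by limma (adjusted p = 0.715 and 0.733). Of the 10 nearest listed genes of ENO2, all were tested, and 0 rose and 0 fell by limma, with 1 at an unadjusted p under 0.05. LRRC23, which overlaps ENO2 on the same strand in GENCODE, differed by 0.26 log2 units (adjusted p = 0.486) and ATN1 on the other side by 0.01 (adjusted p = 0.949). Since read assignment to genes is not stated, reads from the shared stretch of ENO2 and LRRC23 may not have been told apart. Of the 10 nearest listed genes of SNAP25, 8 were tested, and 0 rose and 0 fell by limma, with 3 at an unadjusted p under 0.05. ANKEF1 and MKKS, on either side of SNAP25, differed by 0.55 and -0.01 log2 units (adjusted p = 0.321 and 0.985).

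**Figure D2:**
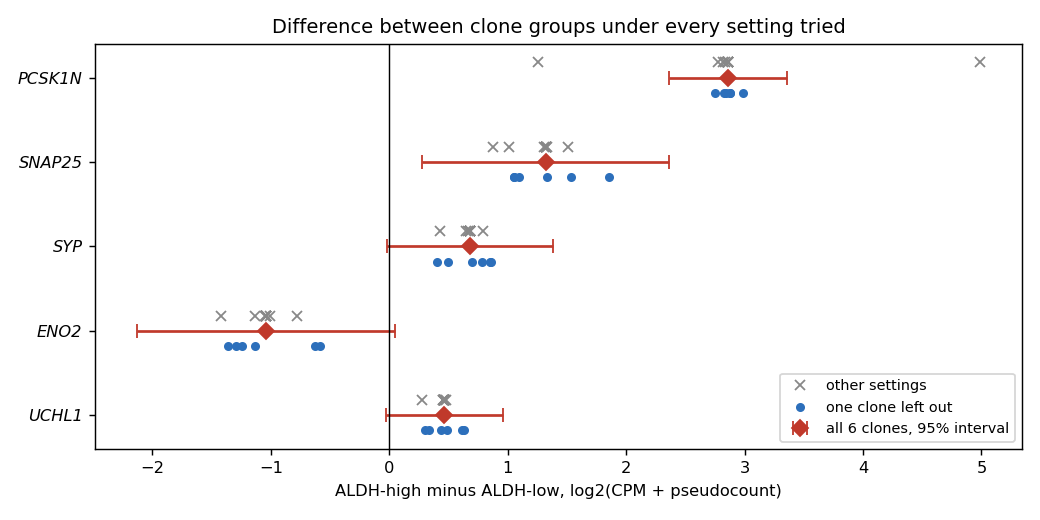
Difference between ALDH-high and ALDH-low clones for the 5 genes with all clones (red, 95% interval), with each clone left out (blue dots) and under the other settings (grey crosses), on log2(CPM + pseudocount). PCSK1N lies between 1.25 and 4.99 and ENO2 between -1.42 and -0.59, and no gene crosses 0 under any setting shown.

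The members differed in how the clones were ordered. The groups did not overlap for 1 of 5 members, PCSK1N, where 14.0% of the tested genes did not overlap with ALDH-high above ALDH-low and 12.1% with ALDH-high below. Clone H1 had the highest value of the ALDH-high clones in 5 of 5 members, which 41.8% of all tested genes also show. Among ALDH-low clones the order differed by gene, with L8 highest for SNAP25 and UCHL1, L3 for SYP and L1 for ENO2. Wild type was above all 6 clones for PCSK1N and SYP, as it was for 22.6% of the tested genes, and lay within their range for the other members. For PCSK1N the ALDH-high mean was close to wild type, at 7.30 CPM in ALDH-high clones, 0.133 CPM in ALDH-low clones and 9.19 CPM in wild type. This was not tested, since wild type is 1 library.

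The nearest profiles were found as the smallest root mean square distance between log2(CPM + 1) values over the 7 libraries, each gene centred on its own mean. For PCSK1N they were ZNF717, ZNF716 and DKK1, at 0.25, 0.28 and 0.36 log2 units, where PCSK1N itself varied by 1.46 about its mean. ZNF717, a zinc finger gene, was at 5.25, 3.73 and 4.28 CPM in ALDH-high clones H1, H6 and H10, against 0.08, 0 and 0.04 CPM in ALDH-low clones L1, L3 and L8, and at 5.56 CPM in wild type. For SNAP25 the nearest were RP11-421L21.3, ZNF486 and SESN2, a stress-induced gene, at 0.33 to 0.35. SESN2 shared the high L8 value, at 15.78, 12.39 and 5.96 CPM in ALDH-high clones H1, H6 and H10, against 4.76, 3.14 and 13.76 CPM in ALDH-low clones L1, L3 and L8. For SYP they were MAGED1, CTSO and SLC27A5, at 0.14 to 0.17. For ENO2 they were BHLHE40, a hypoxia-inducible transcription factor gene, CYSTM1 and PRKCDBP, at 0.29 to 0.33. BHLHE40 was at 7.03, 5.13 and 3.8 CPM in ALDH-high clones H1, H6 and H10, against 19.04, 6.32 and 11.4 CPM in ALDH-low clones L1, L3 and L8. For UCHL1 they were AP4B1, DNAJC1 and AC034193.5, at 0.11 to 0.13. With 7 libraries and 12705 candidates, near profiles are found for any gene, so these are descriptions only.

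The paralogs of the members gave 0 calls by limma. Of 16 listed paralogs 11 could be examined and 10 were tested, with a median difference of -0.11 log2 units, beside 0.0036 for all tested genes, and 1 had an unadjusted p under 0.05. That was UCHL3, the closest relative of UCHL1, at 133.8, 124.97 and 113.88 CPM in ALDH-high clones H1, H6 and H10, against 184.76, 239.43 and 166.8 CPM in ALDH-low clones L1, L3 and L8. Its groups did not overlap, as in 12.1% of all tested genes with ALDH-high below. The difference of -0.65 log2 units did not pass (adjusted p = 0.102). UCHL5 and BAP1, the other ubiquitin hydrolases of the family, differed by -0.06 and -0.41. SNAP23, the broadly expressed counterpart of SNAP25, averaged 44.8 CPM in ALDH-high clones, against 63.8 CPM in ALDH-low clones (adjusted p = 0.332), and SNAP29 and SNAP47 differed by 0.12 and -0.02 log2 units. The synaptophysin relatives SYPL1, SYNGR1 and SYNGR2 differed by 0.15, -0.07 and -0.14 log2 units. ENO3, the muscle enolase, did not pass the filter, at up to 0.91 CPM in ALDH-high clones, against 0.63 CPM in ALDH-low clones.

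A broad list of proprotein convertases and of proteins of secretory granules and peptide processing gave 0 calls by limma over 8 tested genes of 27 listed. Of the 8, 4 had an unadjusted p under 0.05, beside 19.7% of all tested genes, and the median was 0.28 log2 units. The list is not limited to genes whose products act with proSAAS. VGF, a granule protein cut into peptides in neurons and endocrine cells, was at 203.3, 161.26 and 177.16 CPM in ALDH-high clones H1, H6 and H10, against 47.04, 106.65 and 25.68 CPM in ALDH-low clones L1, L3 and L8, and at 288.71 CPM in wild type. The groups did not overlap, as in 14.0% of all tested genes with ALDH-high above. The difference of 1.81 log2 units (SE 0.434) did not pass (adjusted p = 0.0888). CADPS2, which primes dense-core granules for release, averaged 19.0 CPM in ALDH-high clones, against 8.32 CPM in ALDH-low clones (adjusted p = 0.133). CPD, a carboxypeptidase of the secretory pathway, averaged 31.4 CPM in ALDH-high clones, against 20.9 CPM in ALDH-low clones (adjusted p = 0.159). CTSB, the lysosomal protease cathepsin B, lay in the other direction, at 118.18, 350.95 and 312.64 CPM in ALDH-high clones H1, H6 and H10, against 510.2, 1122.9 and 440.32 CPM in ALDH-low clones L1, L3 and L8. Its groups did not overlap, as in 12.1% of all tested genes with ALDH-high below. Its difference of -1.42 log2 units (SE 0.474) did not pass (adjusted p = 0.161), and CTSB was named after its values were seen. Of the 8 tested genes, 4 had a positive and 4 a negative difference. CHGB, a granin gene, is among these 8 and was named after its values were seen. It averaged 1.60 CPM in ALDH-high clones, against 0.593 CPM in ALDH-low clones, with groups that overlapped. The difference of 0.68 log2 units did not pass (limma adjusted p = 0.288). PCSK1, the convertase that proSAAS inhibits, and PCSK2, CPE, CHGA and SCG2 were not analysed here.

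Of 49 genes of SNARE complexes and vesicle exocytosis 24 were tested, of which 1 rose, 1 fell and 22 did not pass, with a median of -0.05 log2 units. The shares over all tested genes were 0.645% that rose and 0.693% that fell. UNC13A, a Munc13 protein that primes vesicles by acting on the SNARE machinery, was at 7.63, 8.62 and 13.4 CPM in ALDH-high clones H1, H6 and H10, against 0.76, 0.43 and 1.76 CPM in ALDH-low clones L1, L3 and L8, and at 5.72 CPM in wild type. Its rise was 2.48 log2 units (SE 0.314, adjusted p = 0.0155), a ratio of means of 10.05, and it lost its call without H10 or L1 (adjusted p = 0.0764 and 0.0813). With a pseudocount of 5 the rise of UNC13A was 1.30 and with 0.1 it was 3.36 log2 units, past the threshold in both (adjusted p = 0.0166 and 0.0277). RAB27A, a GTPase that tethers secretory vesicles, was at 26.15, 22.57 and 22.08 CPM in ALDH-high clones H1, H6 and H10, against 45.76, 47.53 and 45.2 CPM in ALDH-low clones L1, L3 and L8. It fell by 0.94 log2 units (SE 0.146, adjusted p = 0.0308), and lost its call when any clone other than H1 was left out (adjusted p of at most 0.142). STX4, a plasma membrane syntaxin, averaged 56.5 CPM in ALDH-high clones, against 88.3 CPM in ALDH-low clones without passing (adjusted p = 0.0603). The syntaxin STX1A and the vesicle SNARE gene VAMP2, both partners of SNAP25, differed by -0.05 log2 units each, and these partners were named after their values were seen.

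**Figure D3:**
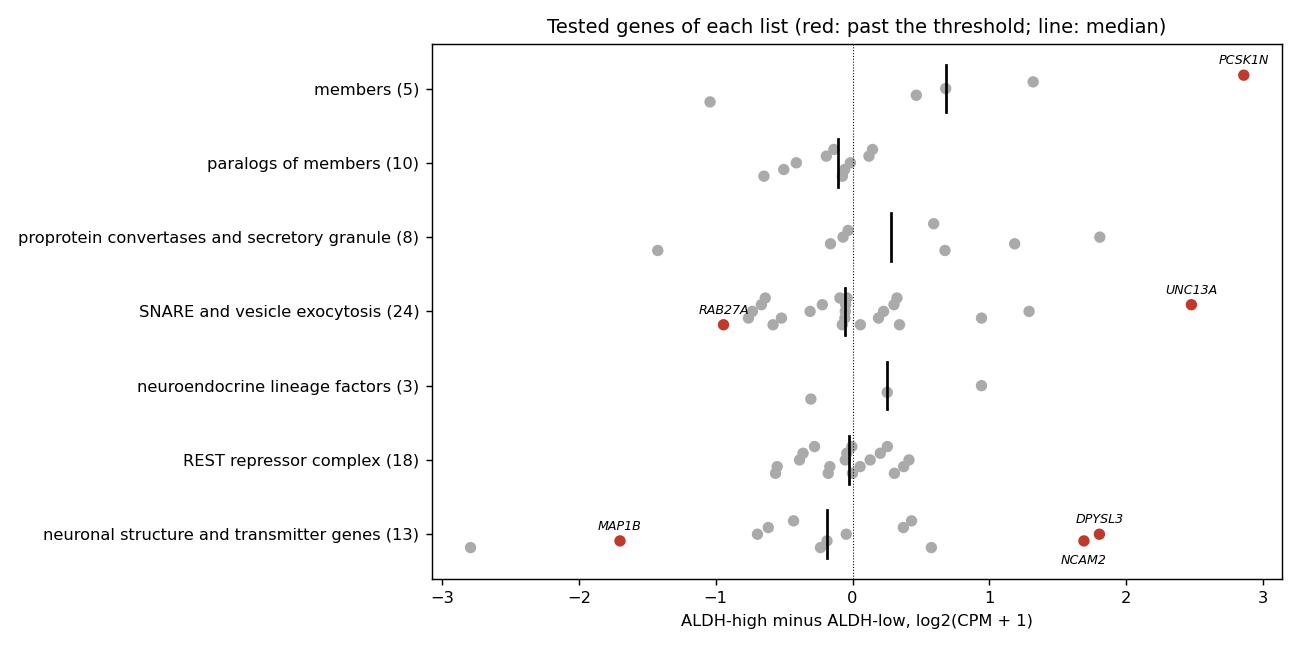
Difference between ALDH-high and ALDH-low clones on log2(CPM + 1) for each tested gene of the members and of the lists around them (number tested in brackets), with genes past the threshold in red and the list's median as a black line. PCSK1N, UNC13A, DPYSL3 and NCAM2 lie above 0 and RAB27A and MAP1B below it, and the medians of the SNARE and REST lists lie near 0.

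Genes of neuronal structure and transmission moved in both directions. Of 47 listed 13 were tested, of which 2 rose, 1 fell and 10 did not pass, with a median of -0.19 log2 units. Over all tested genes 0.645% rose and 0.693% fell. DPYSL3, a collapsin response mediator of growing axons, was at 75.42, 51.26 and 54 CPM in ALDH-high clones H1, H6 and H10, against 21.2, 17.64 and 11.48 CPM in ALDH-low clones L1, L3 and L8 (1.80 log2 units, SE 0.252, adjusted p = 0.0231). NCAM2, a neural adhesion molecule, was at 51.78, 23.48 and 35 CPM in ALDH-high clones H1, H6 and H10, against 7.52, 12.61 and 10.92 CPM in ALDH-low clones L1, L3 and L8 (1.69 log2 units, SE 0.306, adjusted p = 0.0457). MAP1B, a microtubule-associated protein of neurites, was at 42.16, 28.98 and 17.16 CPM in ALDH-high clones H1, H6 and H10, against 88.28, 99.11 and 89.04 CPM in ALDH-low clones L1, L3 and L8, and fell by 1.70 log2 units (SE 0.288, adjusted p = 0.0388). L1CAM, an axonal adhesion molecule singled out after its values were seen, was at 0.72, 0.62 and 0.24 CPM in ALDH-high clones H1, H6 and H10, against 18.4, 2.4 and 16.36 CPM in ALDH-low clones L1, L3 and L8, without passing (-2.79 log2 units, adjusted p = 0.0714). DPYSL3 lost its call without H6, H10 or L8 (adjusted p up to 0.0852). NCAM2 lost it when any clone other than H6 was left out, and MAP1B when any clone other than H1 was left out (adjusted p of at most 0.165 and 0.147). On all 6 clones, NCAM2 was also short of the threshold at a pseudocount of 5, at a filter of 5 CPM, with no filter and in eBayes without trend, and MAP1B in the last of these (adjusted p up to 0.0546 and 0.0508).

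The transcription factors that drive or restrain the neuroendocrine programme gave 0 calls by limma. Of 26 lineage factors and Notch ligands 3 were tested, with 1 at an unadjusted p under 0.05, beside 19.7% of all tested genes. POU2F3, a factor of tuft-like cells, averaged 1.47 CPM in ALDH-high clones, against 0.307 CPM in ALDH-low clones (0.94 log2 units, adjusted p = 0.12). HES6 and ONECUT2 differed by -0.30 and 0.25 log2 units (adjusted p = 0.502 and 0.599). Of 19 genes of the REST repressor complex 18 were tested, with a median of -0.02 log2 units and 2 at an unadjusted p under 0.05. REST itself was at 12.2, 21.38 and 21.52 CPM in ALDH-high clones H1, H6 and H10, against 22.16, 24 and 23.36 CPM in ALDH-low clones L1, L3 and L8, and at 11.87 CPM in wild type. The groups did not overlap for REST, as in 12.1% of all tested genes with ALDH-high below, and H1 and wild type were the lowest libraries. Low values in these libraries were not particular to REST. H1 was the lowest ALDH-high clone in 37.5% of all tested genes. Wild type was below all 6 clones in 6 of the 18 tested genes of this list and in 3232 of all 12705. The difference of REST, -0.36 log2 units, did not pass (adjusted p = 0.436). REST was singled out after its values were seen. The smallest p of this list belonged to HMG20B, HDAC2 and CTDSPL, with differences of -0.56, 0.37 and 0.41 log2 units (adjusted p = 0.107, 0.235 and 0.327).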

How the data were processed

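The authors deposited 1 table of CPM values per gene, which they had scaled by library size and rounded to 2 decimals. The submitters' processing notes name BWA 0.5.9 and the builds mm9 and hg19, with no roles. Column names carry that of CAGEr, software for tags of capped RNA ends. Read assignment to genes and the use of strand are not stated in these sources. Testing covered 12705 of 13872 genes, those that reached 1 CPM in 3 or more of the 6 clones. A gene could thus enter through the 3 clones of 1 group alone, as PCSK1N, ATP8A1, POU2F3, CTDSPL and L1CAM did, among others. ALDH-high was set against ALDH-low by limma (version 3.58.1, R 4.3.3; lmFit, eBayes with trend, two-sided) on log2 CPM after adding 1. Benjamini-Hochberg adjustment ran over all tested genes, with a threshold of 0.05, and "rose" and "fell" mean past it. A test of read counts was not run, because under 95% of the low values were whole multiples of 1 read (within 0.1 read) in H6 (88.0%) and L3 (79.4%). Neighbour order came from GENCODE (GRCh38), matched for 96.6% of genes, and skips genes that are not listed. Members and lists were chosen with earlier results of these data known. Named are the members, their paralogs, each list's called genes and 3 smallest p, adjacent or called neighbours, the 3 nearest profiles per member, and up to 4 urothelial markers per list with the highest mean CPM. Alternatives changed the pseudocount, filter, scaling, variance model, weights, libraries and duplicate genes. The p-values set the group difference against the variation between clones of a group, moderated over all tested genes. Nothing in the labels says whether the clones were grown or sequenced together. A batch that followed the groups could not be told apart from ALDH status.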

Additional observations from a re-analysis of the deposited data

How the results depend on the processing

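PCSK1N kept its direction and its call, and SNAP25, SYP, ENO2 and UCHL1 kept their direction and stayed short of the threshold, under each of the 11 other settings and with each of the 6 clones left out. With 1 clone left out the change of PCSK1N ran from 2.75 to 2.99 log2 units (adjusted p up to 0.0166). The count of genes called over the whole table was less stable, at 170 with all clones, 86 with a filter at 5 CPM, 700 with library weights and 34 to 173 with 1 clone left out. Another scaling moved the median change of all genes to -0.0086 or 0.014 log2 units at most. Both alternatives that need read counts were not run, because H6 and L3 fell short of the share of whole multiples of 1 read set beforehand (95%, within 0.1 read). Rounding of the CPM values can by itself move a low value past this tolerance. The check therefore does not show that the read counts of H6 and L3 could not be recovered. No paired analysis was possible because the clone numbers of the groups share only number 1. With 3 clones a group, a missing call does not show that levels are alike. Since 1 read is about 0.04 CPM, the ALDH-low level of PCSK1N rests on few reads, and the size of its fold is imprecise.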

Other observations

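Of the neuronal genes that did not pass the filter, 3 were singled out after their values were seen. NCAM1 (CD56), the adhesion molecule used to recognise neuroendocrine tumours, was at 0, 0.08 and 0 CPM in ALDH-high clones H1, H6 and H10, against 0, 58.81 and 0 CPM in ALDH-low clones L1, L3 and L8, and at 0.12 CPM in wild type. Its signal came from L3 alone. PCSK1N was low in all ALDH-low clones and SNAP25 was as low in L1 as in L3, so those low levels were not particular to L3. NEFL, the light neurofilament subunit, was at 8.9, 8.91 and 0.04 CPM in ALDH-high clones H1, H6 and H10, against 0, 0.2 and 0 CPM in ALDH-low clones L1, L3 and L8, and at 1.88 CPM in wild type. MAP2, a dendritic microtubule protein, was at 3.22, 0.21 and 0.52 CPM in ALDH-high clones H1, H6 and H10, against 0.04, 0 and 0.12 CPM in ALDH-low clones L1, L3 and L8. These differences between single clones were not tested.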
